A study of Homo sapiens with 3 samples.

Results

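The ADAM, ADAMTS and ADAMTSL genes were taken as all protein-coding genes of GENCODE release 44 (mapped to GRCh37) whose symbol begins with ADAM. There were 45 of them among 20163 protein-coding genes: 21 ADAM genes including ADAMDEC1, 19 ADAMTS genes and 5 ADAMTSL genes. Chromatin immunoprecipitation followed by sequencing (ChIP-seq) was performed on untreated SAOS2 cells, a human osteosarcoma line that lacks p53, with a custom-made RUNX2 antibody and a commercial CBFB antibody. Each antibody had 1 library, no replicate was made, and an input DNA library was not analysed here. For each gene, all peaks of either list that reached within 25 kb of the gene body were taken. The lists held 9941 RUNX2 and 27246 CBFB peaks and no read counts, so the depth is unknown. The lists hold no expression values, so the cell type could not be checked against its markers.

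RUNX2 is the transcription factor that directs osteoblast differentiation. It binds DNA through its runt domain, and CBFB is the partner protein that joins RUNX proteins and stabilises their binding without touching DNA itself. ADAM proteins are membrane-anchored proteins with a metalloprotease and a disintegrin domain, and many of them cut the outer parts of other membrane proteins, which is called shedding. ADAMTS proteins are secreted relatives with thrombospondin repeats that cut proteoglycans, procollagens and other components of the extracellular matrix, including those of bone and cartilage. ADAMTSL proteins share the accessory domains of ADAMTS proteins but have no protease domain. Because several ADAM genes have lost their catalytic residues and others are used mainly in the testis, the genes were also grouped by these roles.

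RUNX2 peaks lay within 25 kb of 13 of the 45 genes, or 28.9% (exact 95% interval 16.4 to 44.3, counting error only). The same was true of 36.0% of all protein-coding genes. CBFB peaks lay near 23 of the 45 genes, or 51.1% (35.8 to 66.3), against 62.2% of all protein-coding genes. Every gene of the family with a RUNX2 peak also had a CBFB peak, so that 13 genes had both, against 35.1% of all protein-coding genes. This pairing was general: of the 7267 protein-coding genes with a RUNX2 peak, 7073 had both. A further 10 genes (22.2%) had CBFB peaks alone, and 22 (48.9%) had no peak of either list. Of the 20163 protein-coding genes, 12536 had a CBFB peak and 7073 had both. The CBFB list is 2.74 times as long as the RUNX2 list. With it cut to the same length by score, 16 members had a CBFB peak and 13 had both. The RUNX2 and CBFB shares of the family were below the background, which lay inside the exact interval of the family in both lists.

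Long genes offer more room for peaks, and the family is rich in long genes: its median body length was 89.9 kb. When all other protein-coding genes were weighted to the same 10 length classes, 42.9% of them had a RUNX2 peak and 68.6% a CBFB peak, so the family fell short of genes of its own length by 14.0 and 17.5 percentage points. The value for RUNX2 lay inside the exact interval of the family, and that for CBFB lay just above its upper end. The interval treats genes as independent, which the clustered members on chromosome 8, described below, are not. The mean number of peaks per gene was 0.600 for RUNX2, against 0.903 in genes of the same length, and 1.67 for CBFB, against 2.51. By length, the 18 members over 160 kb had a RUNX2 peak in 4 cases and a CBFB peak in 9, where 9.51 and 13.6 genes would match the share in other genes of that length (52.8% and 75.7%). The 13 members of 39.5 to 160 kb had them in 2 and 6 cases, where 5.20 and 8.93 would match. The 13 members of 7.28 to 39.5 kb had them in 7 and 8 cases, where 4.36 and 7.89 would match. The single shorter member, ADAM30, had none. These length ranges were chosen after the values were seen. With 1 library per antibody, none of these differences was tested.

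**Figure D1:**
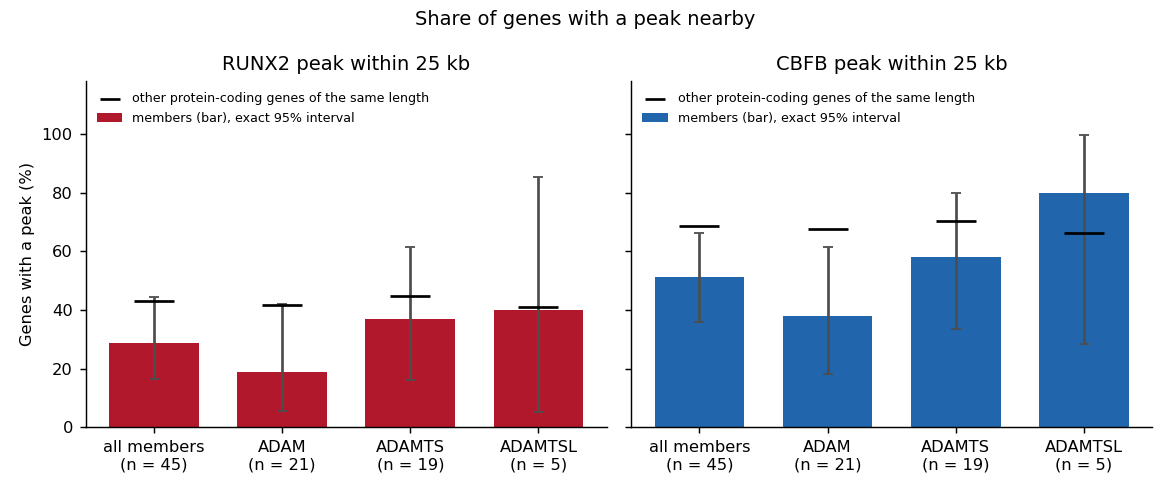
Share of genes with a RUNX2 peak (left) or a CBFB peak (right) within 25 kb of the gene body, in percent, for all 45 members and for each subfamily. Bars are the members with exact 95% intervals for counting error, and black lines are other protein-coding genes weighted to the same lengths. The ADAM bars, at 19.0% and 38.1%, lie farthest below their lines. They include all 7 members on chromosome 8, none of which has a peak.

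RUNX2 peaks lay near 4 of 21 ADAM genes (19.0%, 5.45 to 41.9), where genes of the same length gave 41.7%. They lay near 7 of 19 ADAMTS genes (36.8%, 16.3 to 61.6, against 44.6%) and near 2 of 5 ADAMTSL genes (40.0%, 5.27 to 85.3, against 41.1%). CBFB peaks lay near 8 of 21 ADAM genes (38.1%, 18.1 to 61.6, against 67.7%), 11 of 19 ADAMTS genes (57.9%, 33.5 to 79.7, against 70.2%) and 4 of 5 ADAMTSL genes (80.0%, 28.4 to 99.5, against 66.4%). The intervals of the 3 subfamilies overlapped in both lists.

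The sites where the highest RUNX2 scores of the family coincided with the RUNX core sequence are shown first. The RUNX core is TGTGGT, or ACCACA on the other strand, and was searched on both strands within 100 bp of each peak midpoint. Each line below gives 100 bases to either side of the midpoint in the GRCh37 reference genome for the highest RUNX2 peak of 1 gene, on the plus strand from 5′ to 3′, with the core in capitals. The 5 genes are those with the highest RUNX2 score among peaks that held a core and no exon in this window. The windows are chr9:18260763-18260963 (ADAMTSL1), chr19:8674690-8674890 (ADAMTS10), chr21:28198945-28199145 (ADAMTS1), chr10:127752202-127752402 (ADAM12) and chr10:72487232-72487432 (ADAMTS14).
ADAMTSL1: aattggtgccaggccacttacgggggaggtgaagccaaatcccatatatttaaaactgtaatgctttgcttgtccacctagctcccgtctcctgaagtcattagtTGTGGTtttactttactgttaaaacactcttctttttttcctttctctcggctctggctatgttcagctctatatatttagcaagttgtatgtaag
ADAMTS10: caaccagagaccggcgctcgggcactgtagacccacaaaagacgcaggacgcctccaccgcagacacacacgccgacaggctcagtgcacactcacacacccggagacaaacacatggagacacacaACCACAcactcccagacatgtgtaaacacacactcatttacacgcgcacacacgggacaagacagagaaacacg
ADAMTS1: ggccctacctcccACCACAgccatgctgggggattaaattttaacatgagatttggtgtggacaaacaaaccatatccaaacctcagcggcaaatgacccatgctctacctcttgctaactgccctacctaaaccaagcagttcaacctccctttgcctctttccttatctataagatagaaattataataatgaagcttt
ADAM12: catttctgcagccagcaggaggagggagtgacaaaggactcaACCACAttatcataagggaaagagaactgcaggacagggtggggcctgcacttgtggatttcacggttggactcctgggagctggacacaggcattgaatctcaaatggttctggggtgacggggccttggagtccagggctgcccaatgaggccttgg
ADAMTS14: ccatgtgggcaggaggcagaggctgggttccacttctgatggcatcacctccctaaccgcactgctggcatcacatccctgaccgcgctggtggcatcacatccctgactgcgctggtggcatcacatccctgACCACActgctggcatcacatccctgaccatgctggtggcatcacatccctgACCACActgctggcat
The distance from core to midpoint was 7 bp in ADAMTSL1, 29 bp in ADAMTS10, 84 bp in ADAMTS1 and 55 bp in ADAM12. The ADAMTS14 window held 2 cores. The ADAM15 peak, which had the highest score of the family, was passed over because its window holds an exon, and that of ADAM8 because its window holds no core.

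**Figure D2:**
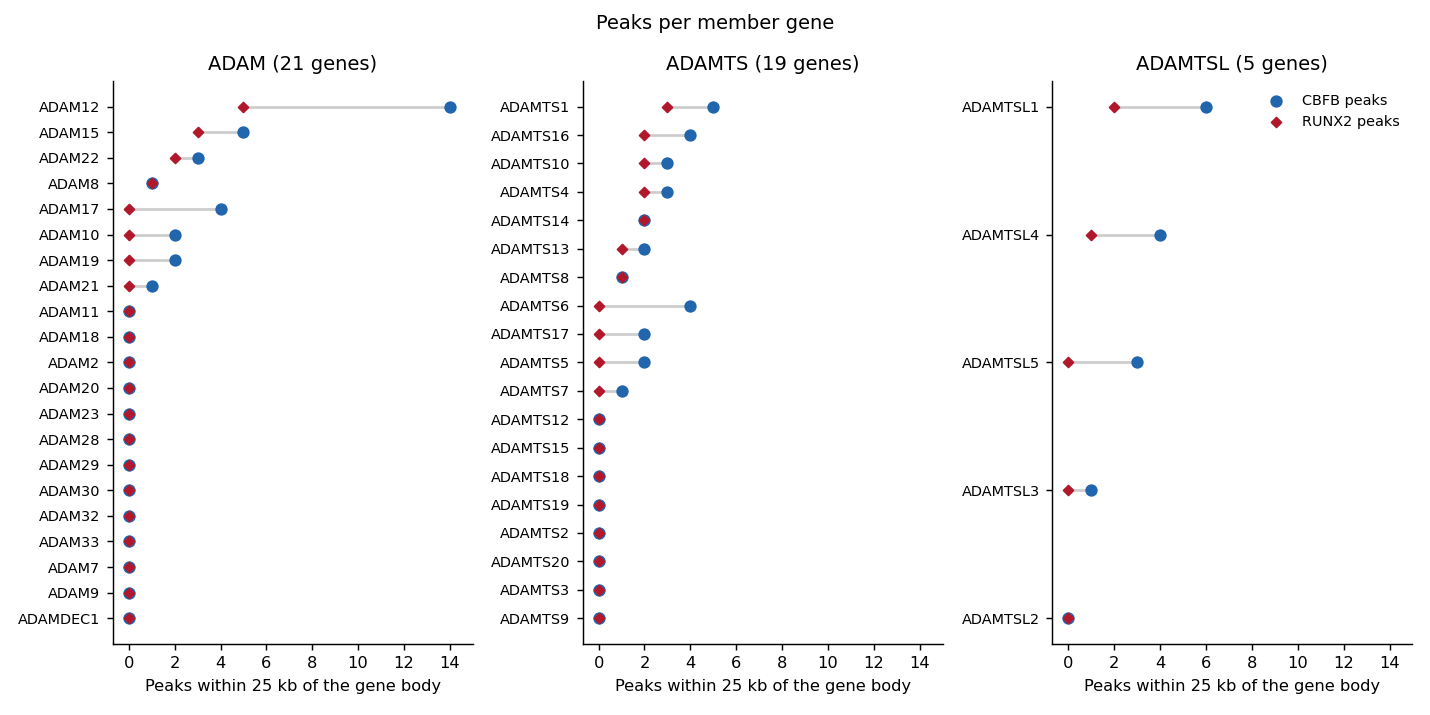
Number of RUNX2 peaks (red diamonds) and CBFB peaks (blue circles) within 25 kb of the body of each of the 45 genes, by subfamily. ADAM12 stands at 5 RUNX2 and 14 CBFB peaks, the highest numbers in the family, and 22 genes stand at 0 in both lists.

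Among the ADAM genes with a protease, 3 of 13 had a RUNX2 peak and 7 of 13 a CBFB peak (genes of their lengths: 39.2% and 65.0%). ADAM12, a protease that also occurs as a secreted form and acts in myoblast and osteoclast fusion, had the most peaks of the family, with 5 RUNX2 and 14 CBFB peaks along its body (chr10:127700950-128077046) and upstream flank. Of the genes of its length class, 8.15% had as many RUNX2 peaks and 5.20% as many CBFB peaks. Its highest RUNX2 peak (chr10:127751829-127752775, intron 14, score 111.66) overlapped its highest CBFB peak, whose score of 767.87 stood at or above 96.1% of the CBFB list. The score was read as -10 times log10 of the peak p-value, which no header states. It was used to order peaks within a list and is not compared between lists. The other 4 RUNX2 peaks scored 88.74 (intron 4), 86.24 (9785 bp upstream of the gene), 76.55 (intron 3) and 68.09 (intron 11), and all 5 overlapped a CBFB peak. A core lay near the midpoint in all but the intron 4 peak, which held no core in its full length. No other protein-coding gene lay within 25 kb of any of these 5 peaks. The 9 CBFB peaks without a RUNX2 peak scored from 64.68 to 230.75 and ran from 11097 bp upstream to the last exon.

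ADAM15, a disintegrin-bearing protease of cell adhesion, had the highest RUNX2 score of the family, 202.43, which ranked 1008 in the list and stood at or above 89.9% of it. This peak (chr1:155033659-155034760) had its midpoint in an exon that lies within intron 20 of the canonical transcript, and overlapped a CBFB peak of score 541.49. The gene is 12.2 kb long, and its 3 RUNX2 and 5 CBFB peaks were matched by 2.88% and 3.28% of the genes of its length class. Another RUNX2 peak lay at its transcription start, 24 bp upstream, with a score of 87.68. It overlapped a CBFB peak of 165.02. The remaining RUNX2 peak, of score 146.15, overlapped a CBFB peak of 242.19 and lay 24148 bp from the nearest ADAM15 start site, inside EFNA3, which encodes an ephrin. All 3 peaks had at least 3 other protein-coding genes within 25 kb, so they cannot be assigned to ADAM15 by position alone. None of the 3 had a core within 100 bp of its midpoint. The other CBFB peaks, of 266.31 and 54.5, lay in EFNA3 and EFNA4.

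ADAM8, a sheddase of leukocytes and osteoclasts, had 1 RUNX2 peak, located 2.46 kb beyond the 3′ end of the gene (chr10:135072421-135073459). Its score of 150.49 was the next highest after ADAM15 among the top scores of the genes. It overlapped the only CBFB peak near the gene, which scored 869.34 and stood at or above 96.9% of the list. No core occurred anywhere in this RUNX2 peak.

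The best-known sheddases had no RUNX2 peak within 25 kb. ADAM10, which cuts Notch receptors and the amyloid precursor protein, had 2 CBFB peaks, in intron 2 (chr15:58991166-58992117, score 171.83) and 21202 bp upstream (score 202.27), the latter nearest to MINDY2. ADAM17, which releases tumour necrosis factor and ligands of the EGF receptor, had 4 CBFB peaks with scores from 50.42 to 112.14. The pair at its start lay 695 bp and 2254 bp downstream of the gene start, with scores of 108.85 and 50.42, and the other pair lay in the neighbouring genes IAH1 (72.0) and CPSF3 (112.14). The nearest RUNX2 peak was 36.6 kb from the ADAM10 body and 136 kb from the ADAM17 body. ADAM19, the meltrin that sheds neuregulin, had CBFB peaks in introns 5 and 6 with scores of 143.8 and 84.95, and its nearest RUNX2 peak was 142 kb away.

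ADAM21 had 1 CBFB peak, 18 bp from its start and within SYNJ2BP, with a score of 92.38. The other ADAM protease genes, ADAM9, ADAM20, ADAM28, ADAM30, ADAM33 and ADAMDEC1, had no peak of either list.

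Of the 8 ADAM genes without protease activity, only ADAM22 had peaks (genes of their lengths: 45.9% for RUNX2 and 72.0% for CBFB). ADAM22 is a synaptic receptor of the secreted protein LGI1. Its first exon lay under a RUNX2 peak (chr7:87563109-87564041, score 95.26) whose midpoint was 117 bp into the gene, and under a CBFB peak of score 241.24. Another overlapping pair lay in intron 29, with scores of 74.92 and 100.48, and a CBFB peak of 147.41 lay 7329 bp upstream. ADAM2, ADAM7, ADAM11, ADAM18, ADAM23, ADAM29 and ADAM32 had none. Of these, ADAM2, ADAM7, ADAM18 and ADAM32 lie in the clusters on chromosome 8 described below. ADAM11 and ADAM23 are neural relatives of ADAM22, and their nearest CBFB peaks were 47.1 kb and 144 kb away. Of the 8 ADAM genes used mainly in the testis or epididymis, none had a RUNX2 peak and ADAM21 had the one CBFB peak (genes of their lengths: 40.2% and 66.1%).

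Chromosome 8 carries 7 members in 2 clusters (ADAM28, ADAMDEC1 and ADAM7, and ADAM9, ADAM32, ADAM18 and ADAM2). All 7 are ADAM genes, and none had a peak. Their nearest RUNX2 peaks were 310 to 1057 kb away. The surroundings were also poor in peaks. Of the 79 other protein-coding genes in the 15.5 Mb between the outermost members, 8.86% had a RUNX2 peak and 24.1% a CBFB peak, against 25.9% and 48.1% of the 702 other genes of the chromosome. Within 1 Mb of a member, 1 of 31 other genes had a RUNX2 peak and 5 a CBFB peak. With these 7 genes left out, a step chosen after the data were seen, the shares of the family were 34.2% for RUNX2 and 60.5% for CBFB, and the shortfalls were 8.68 and 7.72 points, against 14.0 and 17.5. Clustered genes share their surroundings and are not independent, and the part of the surroundings in these zeros was not tested.

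Among the ADAMTS genes, 3 of the 7 hyalectanases, which cut aggrecan and versican, had a RUNX2 peak (42.9%, against 39.6% of genes of their lengths) and 4 a CBFB peak (57.1%, against 66.0%). ADAMTS1, a secreted protease of angiogenesis and matrix turnover, had 3 RUNX2 and 5 CBFB peaks at a gene of only 9.65 kb. Of the genes of its length class, 2.83% had as many RUNX2 peaks and 3.73% as many CBFB peaks. Its highest RUNX2 peak lay beyond the 3′ end (chr21:28198274-28199817, score 115.17), overlapped a CBFB peak of 695.71 and held the core printed above. The other 2 lay at the start: 1 centred 388 bp upstream (86.24) and 1 in intron 1 (52.55), under CBFB peaks of 563.33 and 558.89. All 3 CBFB partners stood at or above 92.9% of their list, and no other protein-coding gene lay within 25 kb of any of the 3 RUNX2 peaks. The 2 other CBFB peaks scored 81.81 and 68.52.

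ADAMTS5, the main aggrecan-cutting enzyme of mouse cartilage, lies beside ADAMTS1 on chromosome 21 and had no RUNX2 peak within 25 kb. It had CBFB peaks over its first exon (chr21:28337405-28340482, score 265.42, the highest score among members with CBFB alone) and in intron 1 (80.57). The nearest RUNX2 peak was just outside, 29.0 kb beyond the 3′ end (chr21:28260311-28261276, score 93.00), and it overlapped a CBFB peak. ADAMTS4, the other major aggrecanase, had 2 RUNX2 peaks and 3 CBFB peaks in reach. The higher RUNX2 peak scored 79.42, lay 18592 bp upstream inside FCER1G and overlapped a CBFB peak of 245.46. It had 6 other protein-coding genes within 25 kb, and no peak lay on the ADAMTS4 body.

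ADAMTS8 had 1 RUNX2 peak of 87.22 with a core and 1 CBFB peak of 441.61, overlapping each other 20.6 kb beyond the gene within the non-coding gene ZBTB44-DT. The neighbouring ADAMTS15 was 64.4 kb from the same RUNX2 peak and had none within 25 kb. ADAMTS9 and ADAMTS20, relatives of the worm gene gon-1, had no peak of either list.

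Of the 3 procollagen N-proteinases, which trim fibrillar procollagens, ADAMTS14 had peaks and ADAMTS2 and ADAMTS3 had none (genes of their lengths: 48.1% for RUNX2 and 73.3% for CBFB). ADAMTS14 (chr10:72432262-72522197) held the highest CBFB score of the family, 1695.52, ranked 150 and at or above 99.5% of the list. The RUNX2 peak on the same intron 4 site (chr10:72486824-72487841) scored 103.15, at or above 63.7% of its list. The site is a tandem repeat: the window printed above matched itself at 76.6% of its bases when shifted by 26 bp, the best of all shifts from 5 to 90 bp, and the whole RUNX2 peak held 6 cores. A further pair of peaks lay 7598 bp upstream, in PALD1, with a RUNX2 score of 76.80 and a CBFB score of 345.77. The nearest RUNX2 peak to ADAMTS2 was 86.6 kb away and that to ADAMTS3 was 951 kb away.

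The 2 proteases of cartilage oligomeric matrix protein (COMP) had no RUNX2 peak, and ADAMTS7 had 1 CBFB peak of 99.14 in its last intron while ADAMTS12 had none (genes of their lengths: 44.9% for RUNX2 and 70.7% for CBFB). ADAMTS13, which cuts von Willebrand factor (VWF), had 1 RUNX2 peak (chr9:136282807-136283735, score 89.89) in an intron 3793 bp from its start, overlapping a CBFB peak of 169.75. A CBFB peak of 77.08 lay upstream in REXO4.

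Of the 6 ADAMTS genes with other or unassigned substrates, ADAMTS10 and ADAMTS16 had RUNX2 peaks (2 of 6, where 3 genes would match the share at their lengths) and 4 had CBFB peaks (66.7%, against 74.0%). ADAMTS10, a binding partner of fibrillin microfibrils that is mutated in Weill-Marchesani syndrome, had a RUNX2 peak in intron 1 (chr19:8674339-8675241, score 130.36) over a CBFB peak of 290.67. It had another RUNX2 peak downstream in MYO1F, of 105.82, over a CBFB peak of 369.75. A CBFB peak without RUNX2, of 65.88, lay in intron 13. Both RUNX2 peaks held a core within 100 bp of the midpoint. ADAMTS6, the closest relative of ADAMTS10, had 4 CBFB peaks from 55.6 to 161.85, all within introns, and ADAMTS17 had CBFB peaks of 127.32 in intron 13 and 102.77 at its start. ADAMTS18 and ADAMTS19 had no peak of either list.

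ADAMTS16 (chr5:5140443-5320417) held the only RUNX2 peak of the family that overlapped no CBFB peak. This peak lay in intron 20 (chr5:5304971-5305513, score 63.42), and the nearest CBFB peak was 26.3 kb away. It held 20 copies of ACCACA and none of TGTGGT in 543 bp, or 36.8 per kb, at a median spacing of 21 bp. The median over the RUNX2 list was 1 copy per peak, and 23 of 9928 peaks (0.232%) held 20 or more. The sequence is shown because of this density and was chosen after its values were seen: it spans 100 bases to either side of the midpoint (chr5:5305142-5305342, plus strand, 5′ to 3′), with the cores in capitals.
ADAMTS16: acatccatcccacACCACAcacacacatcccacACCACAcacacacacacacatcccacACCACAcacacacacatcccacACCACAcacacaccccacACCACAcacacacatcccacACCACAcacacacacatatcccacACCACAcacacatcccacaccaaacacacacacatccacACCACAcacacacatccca
The window was a chain of CA-rich units with 8 cores. Windows in which a word of 15 bases occurred 5 or more times made up 1.33% of the RUNX2 list (132 of 9928), and near the family there were 2 of 27, those of ADAMTS14 and ADAMTS16. In the list, 12.1% (7.09 to 18.9) of such windows lacked a CBFB peak, against 5.69% (5.24 to 6.16) of the others. The part of the repeat in the missing overlap was not tested. The other RUNX2 peak of ADAMTS16, in intron 14, scored 54.35 over a CBFB peak of 363.99, and 3 CBFB peaks without RUNX2 scored from 76.77 to 107.78.

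Among the ADAMTSL genes, ADAMTSL1, the longest gene of the family at 1004 kb, had 2 RUNX2 and 6 CBFB peaks. Its class of long genes reached 2 or more RUNX2 peaks in 31.4% of cases. The higher RUNX2 peak (chr9:18260420-18261307, score 141.62) lay in an intron, far from other protein-coding genes, over a CBFB peak of 639.24, and held 4 cores in its full length. The lower one, of 95.09, lay in intron 27, where SAXO1 overlaps the gene, over a CBFB peak of 437.92. The 4 other CBFB peaks lay in introns and scored from 55.34 to 69.45. ADAMTSL4, an anchor of fibrillin fibres in the eye, had 1 RUNX2 peak of 71.15 and 4 CBFB peaks, the highest of 471.41. That RUNX2 peak lay just beyond the gene end, with its midpoint in an intron of MCL1, an apoptosis regulator and the nearest protein-coding gene. ADAMTSL5 had 3 CBFB peaks from 51.33 to 200.05, all downstream within PCSK4 or REEP6, and ADAMTSL3 had 1 of 92.98 in intron 15. ADAMTSL2 had none.

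**Figure D3:**
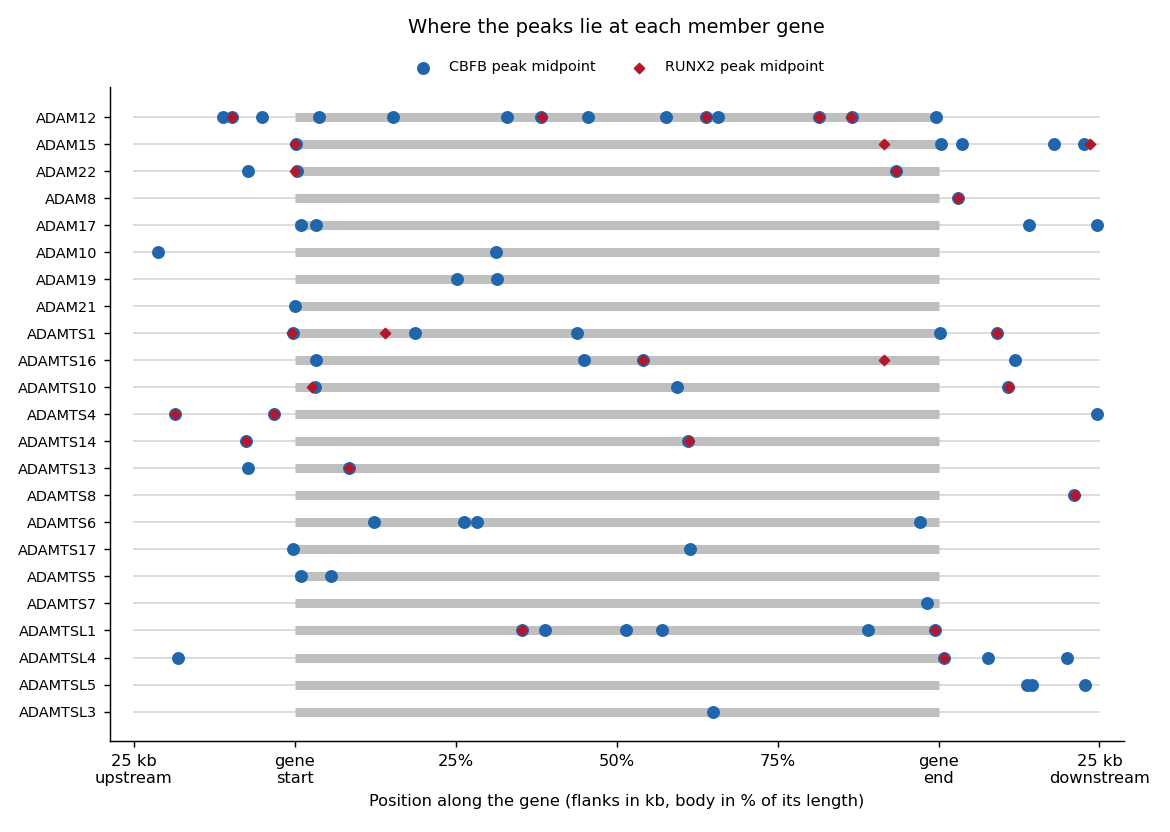
Midpoints of RUNX2 peaks (red diamonds) and CBFB peaks (blue circles) at the 23 genes with a peak. Grey bars are gene bodies scaled to the same length, with positions in percent from the start, and thin lines are the 25 kb flanks to scale. Of the 27 RUNX2 peaks 26 overlap a CBFB peak, also where the midpoints stand apart because a peak is wide (in ADAM15 and ADAMTS1), and the diamond near the end of ADAMTS16 is the one without.

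The 27 RUNX2 peaks near the family overlapped a CBFB peak in 26 cases (96.3%, 81.0 to 99.9), against 94.0% of the 7369 RUNX2 peaks within 25 kb of any protein-coding gene. The 75 CBFB peaks overlapped a RUNX2 peak in 26 cases (34.7%, 24.0 to 46.5, against 33.3%). No peak was near 2 members. CBFB peaks with a RUNX2 partner had a median score of 355 (range 100.48 to 1695.52, n = 26), and those without one had a median of 85.0 (50.42 to 266.31, n = 49). The whole list gave medians of 278 and 91.2.

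RUNX2 peaks were within 5 kb of some annotated transcription start site in 18 of 27 cases (66.7%, 46.0 to 83.5), against 54.3% of the RUNX2 peaks near protein-coding genes, a value inside the interval. Counted by all annotated start sites of the member itself, 14 of 27 were within 5 kb of one. Of the rest, 6 lay in the gene body, 3 upstream and 4 downstream. Some of the 14 lay near alternative start sites far from the start of the gene, as in intron 14 of ADAM12, 324744 bp in. Others, as at ADAM8, lay beyond the gene end. A member was the nearest protein-coding gene to 20 of 27 RUNX2 and 55 of 75 CBFB peaks. For 14 and 44 of them no other protein-coding gene lay within 25 kb.

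The core was found within 100 bp of the midpoint in 14 of 27 RUNX2 peaks (51.9%, 31.9 to 71.3), against 41.2% of those near protein-coding genes. In windows of equal length placed 2 kb from the midpoint on both sides it was found in 14.8% (6.62 to 27.1). The counts were also made by subfamily. Near ADAMTS genes 9 of 13 RUNX2 peaks had a core (69.2%, 38.6 to 90.9) and 0 of 26 flanking windows did. Near ADAM genes 4 of 11 peaks (36.4%, 10.9 to 69.2) and 7 of 22 flanking windows (31.8%, 13.9 to 54.9) had one. Over the full length of the peak, the core was found in 8 of 11 near ADAM genes (72.7%) and 9 of 13 near ADAMTS genes, and among CBFB peaks within 100 bp of the midpoint in 43.8% near ADAM and 24.1% near ADAMTS genes, so the order of the subfamilies did not hold. The intervals of the 2 subfamilies for RUNX2 peaks overlapped, and a core is bound by every RUNX protein, so it is no mark of RUNX2 alone.

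**Figure D4:**
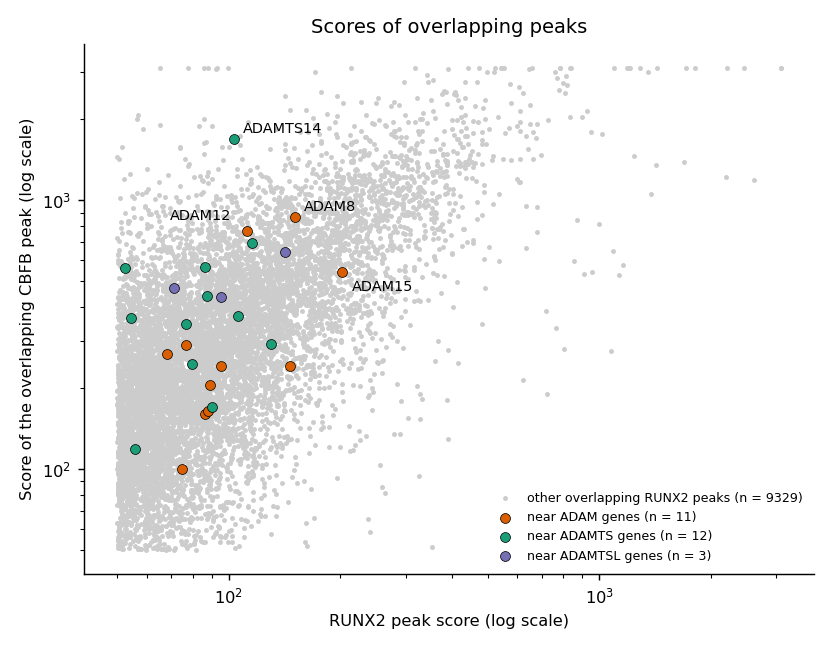
Score of each overlapping RUNX2 peak against the score of its CBFB peak, both on log axes. Grey points are the 9329 overlapping RUNX2 peaks away from the family, and coloured points the 26 near it by subfamily. The coloured points span RUNX2 scores from 52.55 to 202.43, and none lies in the top 10% of the RUNX2 list.

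RUNX2 scores near the family were moderate. Their median was 87.7 (range 52.55 to 202.43), against 83.5 for peaks near protein-coding genes, and 0 of 27 lay in the top 10% of the list (upper exact limit 12.8%), against 9.72%. CBFB scores had a median of 127 against 121, and 9 of 75 (12.0%, 5.64 to 21.6) were in the top 10%. Spearman's rho of the paired scores was 0.378 over 26 pairs and 0.602 over the 9355 pairs of the list. Paired peaks share their site and its sequence, so this is a description.

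Genes that act with these proteases were counted by lists chosen with earlier results of these data known. The 4 proprotein convertases of the list, a class that removes inhibitory prodomains, each had both a RUNX2 and a CBFB peak (genes of their lengths: 43.7% and 69.2%). They were FURIN (56.35), PCSK5 (114.02), PCSK6 (196.7) and PCSK7 (73.84), by their highest RUNX2 score. The list was not a complete one: PCSK4, which was not on it, had CBFB peaks and no RUNX2 peak within reach. Of 8 trafficking partners of ADAM10 and ADAM17, 7 had a RUNX2 peak (87.5%, 47.3 to 99.7, against 36.9%) and 8 a CBFB peak (against 64.2%). All 6 tetraspanins of the list had one, from TSPAN33 (55.07) to TSPAN15 (233.02, with 3 RUNX2 and 11 CBFB peaks), and so did RHBDF2 (92.23), which escorts ADAM17 to the cell surface. RHBDF1 had a CBFB peak but no RUNX2 peak. ADAM10 and ADAM17 themselves had CBFB peaks but no RUNX2 peak within 25 kb. These shares were not tested, and the lists are short.

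Of the 6 inhibitors, 1 had a RUNX2 peak and 3 a CBFB peak (genes of their lengths: 35.1% and 63.3%). TIMP2 had 6 RUNX2 peaks, the highest of 302.92 at or above 96.1% of the list, and 9 CBFB peaks, while TIMP1 and RECK had CBFB peaks alone and TIMP3, TIMP4 and A2M had none. Of 17 shed substrates, 6 had a RUNX2 peak (35.3%, against 39.4% of genes of their lengths) and 11 a CBFB peak (64.7%, against 65.7%). IL6R, the interleukin-6 receptor, had the highest RUNX2 score, 360.23. TNFSF11, which encodes the osteoclast factor RANKL, had 1 RUNX2 peak of 149.57. Of 12 matrix substrates and partners, 6 had a RUNX2 peak (genes of their lengths: 40.4%) and 10 a CBFB peak (83.3%, against 67.3%). VWF (135.8) and COL1A1 (135.42), the latter encoding the main collagen of bone, had the highest scores, and ACAN, the substrate of the aggrecanases, had 1 RUNX2 peak of 75.56.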

How the data were processed

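ChIP-seq of RUNX2 and of CBFB in SAOS2 cells gave 1 peak list each. Input DNA was not analysed here. The submitters' processing notes name CASAVA 1.8.2, MACS 1.4.1 and hg19, which is GRCh37. The deposited score, set by the authors' peak caller, was read as -10 times log10 of the peak p-value, from 50 to 3100. The calling limit and the use of input as control were not given in the sources used here. The depth is unknown, so intervals (exact Clopper-Pearson, 95%) cover counting error only.

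Genes were those of GENCODE release 44 on chromosomes 1 to 22, X and Y. A peak was near a gene if it reached within 25 kb of its body, and overlap meant 1 bp or more. The share for genes of the same length was taken over all other protein-coding genes in the same of 10 length classes, weighted by members. Promoters were 5 kb to either side of a transcription start site. The counting was tested on simulated data. The members, role lists and pathway lists were chosen with earlier results of these data known. Described with all their peaks, singly or as a range of scores, were the 10 genes of highest RUNX2 score, the 5 of highest CBFB score without RUNX2, and ADAM10, ADAM17, ADAM12, ADAMTS1 and ADAMTS5. ADAMTS4 was included, but the details of 1 peak near it are not reported here. All other members were named with their number of peaks or their highest score. From each other list the genes with the highest RUNX2 score were named, and further genes of these lists were named after their values were seen. Alternatives covered reach, score, length classes, overlap, motif and promoter width. Python 3.11.15, numpy 2.4.6, pandas 2.3.3, scipy 1.17.1, pysam 0.24.0 and matplotlib 3.10.9 were used.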

Additional observations from a re-analysis of the deposited data

How the results depend on the processing

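Of 45 alternatives, 39 stayed within 1.5 times the count or within the interval of the value reported, and 6 moved. Only the shortfalls have a direction that could change, and none of them changed it. Counts of genes and shares of peaks have none. The shortfalls all counted among the 39, although their size changed as given below. The member counts with chromosome 8 left out were also among them and could not change, since no member there had a peak. With a reach of 100 kb, 21 genes had a RUNX2 peak and 20 had both. The share of RUNX2 peaks overlapping CBFB was 70.4% when at least 50% of each peak had to overlap, 77.8% with midpoints within 200 bp and 100% for RUNX2 peaks at or above the median score. Promoter peaks were 44.4% with 1 kb to either side. The shortfall against genes of the same length ran from 4.60 points (peaks at or above the median score) to 15.2 points (reach of 100 kb) for RUNX2, and from 6.04 points (CBFB list cut to the length of the RUNX2 list by score) to 17.0 points (fixed length classes) for CBFB. The former setting and the omission of chromosome 8 were chosen after seeing the data. No paired analysis was possible because there was a single library for each antibody. Leaving out a replicate could not be done for the same reason. The lists hold only called peaks, so a gene without a peak may hold signal below the calling limit.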

Other observations

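Several members without a RUNX2 peak within 25 kb had one within 100 kb of the gene body. That of ADAMTS7 was 29.7 kb upstream, in MORF4L1, with a score of 97.28 and an overlapping CBFB peak. That of ADAMTS19 was 32.5 kb downstream, scored 54.17 and overlapped no CBFB peak. Beyond the 3′ end of ADAM10, LIPC held RUNX2 peaks at 36.6, 53.6 and 55.9 kb with scores of 85.25, 72.17 and 177.37, each overlapping a CBFB peak. ADAM29 had one at 57.8 kb with a score of 53.06. ADAM30 had one at 92.8 kb, in NOTCH2, with a score of 57.88 and no CBFB overlap.

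Per length of gene body and flanks together, the family held 3.10 RUNX2 and 8.61 CBFB peaks per Mb (8.71 Mb), against 4.35 and 12.1 per Mb for the other protein-coding genes (1690 Mb). The 3 subfamilies held 3.52 (ADAM, 11 peaks), 3.36 (ADAMTS, 13 peaks) and 1.76 (ADAMTSL, 3 peaks) RUNX2 peaks per Mb. ADAMTSL1 alone is 1004 kb long, in an ADAMTSL total of 1.70 Mb. None of these densities was matched for gene length. The AP-1 sequence TGAGTCA, or its complement, lay within 100 bp of the midpoint of 3 of 27 RUNX2 peaks (11.1%, 2.35 to 29.2), against 9.72% of the list. These values were not tested.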
